A study of Homo sapiens with 16 samples.

Results

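Intermediate filaments are cytoskeletal fibres made of coiled-coil proteins. The 10 genes described here encode the nuclear lamins LMNA, LMNB1 and LMNB2, vimentin (VIM), nestin (NES) and the keratins KRT8, KRT18, KRT19, KRT10 and KRT1. They were taken by name from a list of intermediate filament genes, not by a rule on their values. The list was chosen with earlier results of these data known. They are 10 of the 35052 genes assembled from the deposited transcript tables. Of these 10 genes, 9 passed the filter on low counts and are among the 17559 genes tested. KRT1 had 0 to 3 reads in each of the 16 libraries and was not tested.

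RNA came from K562, an established human leukaemia cell line of wild-type genotype that can take on megakaryocyte-like features. The cells received 25 nM PMA, a phorbol ester that activates protein kinase C, and were sampled untreated (0 h), early after treatment (0.5, 1.5, 3 and 6 h) and late (24, 48 and 72 h). Each time point had 2 libraries of total RNA depleted of ribosomal RNA, and all comparisons against 0 h share the same 2 untreated libraries. The medium was changed after 24 and 48 h, and no untreated cells of the later times were among the samples, so PMA and time in culture cannot be told apart, nor, at 48 and 72 h, can the change of medium. The labels do not say that the 2 libraries of a time point came from separate cultures, so p-values measure only the spread between these libraries, which may be technical.

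Libraries held 27285773 to 54056289 estimated reads, and the 2 libraries of a time point correlated at r = 0.982 to 0.990 across genes. All 9 markers of K562, erythroid and progenitor cells were at 1 CPM or more in both libraries of every time point, where CPM is the count scaled to the library total after adjustment by its TMM factor. The summed level of 8 megakaryocyte markers was 86.8 to 125 CPM at 0 h and 5455 to 6198 CPM at 72 h, mostly from THBS1 and ITGB3, while PF4 and GP9 had at most 1 read. Of the 8 markers, 5 were at 1 CPM or more in both libraries at 0 h and 5 at 72 h. ITGA2B was at 52.6 to 62.9 CPM at 0 h and at 12.9 to 64.4 CPM over all libraries. The summed level of 7 fibroblast and stroma markers was 11.4 to 13.3 CPM at 0 h and 236 to 254 CPM at 72 h, most of it from COL1A1 (up to 244 CPM), with LUM at 0 reads in every library and COL3A1 at 5 reads or fewer. Of 5 epithelial markers, KRT5 and KRT14 had at most 1 and 3 reads, and the summed level was 45.8 to 54.01 CPM at 0 h, 87.8 to 88.6 CPM at 6 h and 20.0 to 22.0 CPM at 72 h, most of it from EPCAM. The summed level of 5 lymphoid markers was 6.23 to 18.8 CPM over all libraries, with MS4A1 at 1 read or fewer. The part of these marker changes in the results below was not tested, and in a bulk sample fewer cells of a type and less RNA per cell cannot be told apart.

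As background, lamins form the meshwork that lines the inner nuclear membrane. The A-type lamins, lamin A and lamin C, are both spliced from LMNA and are typical of differentiated cells, and the B-type lamins LMNB1 and LMNB2 are made in most cells. Vimentin is the main cytoplasmic filament protein of blood and mesenchymal cells, and nestin enters filaments together with a partner such as vimentin. Keratins assemble as pairs of a type II chain (KRT8, KRT1) with a type I chain (KRT18, KRT19, KRT10): KRT8 pairs with KRT18 and KRT19 in simple epithelia, and KRT1 with KRT10 in the upper epidermis.

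The ends of the B-type lamin coding sequences show the feature that anchors these proteins in the nuclear membrane. Both end in a CaaX box, a cysteine followed by 3 further residues, to which a farnesyl lipid is attached. Prelamin A carries such a box too, and lamin C lacks it. The last 60 coding bases before the stop codon are given below, from the GENCODE 29 transcripts (GRCh38), with the final 4 codons in capitals.
lamin B1 (LMNB1-201): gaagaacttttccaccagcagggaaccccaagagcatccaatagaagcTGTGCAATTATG
lamin B2 (LMNB2-201): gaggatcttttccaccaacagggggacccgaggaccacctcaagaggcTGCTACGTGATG
In both, a cysteine codon opens the final 4 codons. Lamin A and lamin C share most of their coding sequence, and reads from the shared stretch do not tell them apart.

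Promoter sequences are shown for 3 genes that represent the 3 kinds of time course found: NES (lasting rise), KRT10 (a rise that ended) and LMNB1 (fall). Each is the 250 bases before the RefSeq start (GRCh38.p14), on the gene's strand, and was used because the most abundant transcript starts within 50 bases of that start. Capitals mark matches, on either strand, to 4 motifs. The SP1 motif was searched as GGGCGG and the CCAAT box by the letters of its name. The TATA box was searched as TATAAA. For the GATA motif the letters were AGATAA.
NES (chr1:156677408-156677657, minus strand): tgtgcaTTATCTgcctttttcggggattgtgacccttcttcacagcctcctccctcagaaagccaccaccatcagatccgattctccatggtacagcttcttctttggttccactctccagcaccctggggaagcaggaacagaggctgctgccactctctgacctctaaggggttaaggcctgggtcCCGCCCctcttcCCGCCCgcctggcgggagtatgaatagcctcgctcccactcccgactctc
KRT10 (chr17:40822615-40822864, minus strand): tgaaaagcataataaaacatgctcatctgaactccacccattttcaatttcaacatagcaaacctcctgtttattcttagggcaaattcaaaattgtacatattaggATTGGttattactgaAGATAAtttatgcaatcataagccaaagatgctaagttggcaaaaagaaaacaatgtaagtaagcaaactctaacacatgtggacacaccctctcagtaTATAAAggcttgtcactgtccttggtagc
LMNB1 (chr5:126776886-126777135, plus strand): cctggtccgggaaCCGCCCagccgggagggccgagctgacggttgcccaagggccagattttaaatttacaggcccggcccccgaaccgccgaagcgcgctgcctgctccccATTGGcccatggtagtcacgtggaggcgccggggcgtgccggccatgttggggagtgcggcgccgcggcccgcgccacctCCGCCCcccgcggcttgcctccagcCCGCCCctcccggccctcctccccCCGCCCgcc
The LMNB1 window holds the SP1 motif 4 times and the CCAAT box once, the NES window the SP1 motif 2 times and the GATA motif once, and the KRT10 window the CCAAT box, TATA box and GATA motif once each and no SP1 motif. Of 35116 RefSeq windows of the same length, 42.6% hold the SP1 motif, 32.0% the CCAAT box, 10.7% the TATA box and 9.17% the GATA motif. The letters TGANTCA of an AP-1 motif (6.57% of all windows) and GCGNGGGCG of an EGR motif (8.41%; it can overlap the SP1 motif) are in none of the 3 windows. A match or its absence describes these letters in this window and nothing about binding.

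Across the 8 time points, all 9 tested genes differed in an F-test of the edgeR quasi-likelihood fit, at Benjamini-Hochberg adjusted p-values of 1.20e-12 (NES) to 1.85e-04 (LMNB2). The background is high: 82.9% of all tested genes passed the same test. At 3 h, 7 of the 9 genes were higher than at 0 h (LMNA, VIM, NES, KRT8, KRT18, KRT19 and KRT10) and 0 were lower, where 21.5% of all genes were called higher and 20.5% lower. At 6 h the same 7 genes were higher and LMNB2 was lower, against 27.8% and 29.4% of all genes. At 24 h 7 genes were higher and both B-type lamins lower (31.7% and 26.6% of all genes), and the same 7 and 2 genes were called at 48 h (30.2% and 24.1%). At 72 h, 5 genes were higher (VIM, NES, KRT8, KRT18 and KRT19) and the 2 B-type lamins lower, and LMNA and KRT10 were no longer called (31.7% and 26.9% of all genes).

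Before 3 h no call was made. At 0.5 h, 0 of 9 genes passed the edgeR test, with 3 at an unadjusted p under 0.05 and 0 with DESeq2, where 0.165% of all genes were called higher and 0.0057% lower. At 1.5 h again 0 of 9 passed, with 3 at an unadjusted p under 0.05 and 0 with DESeq2, where 9.05% and 8.05% of all genes were called. With the trend of each library with GC content removed, 4 of the 9 genes were called at 1.5 h, among them VIM, NES and KRT18, where that analysis called 3133 of all genes and the main one 3003. The median log2 fold change of the 9 genes was 0.04 at 1.5 h, 1.102 and 1.64 at 3 and 6 h, and 2.04, 1.61 and 0.84 at 24, 48 and 72 h, while that of all tested genes was within 0.032 of 0 at each of these times.

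**Figure D1:**
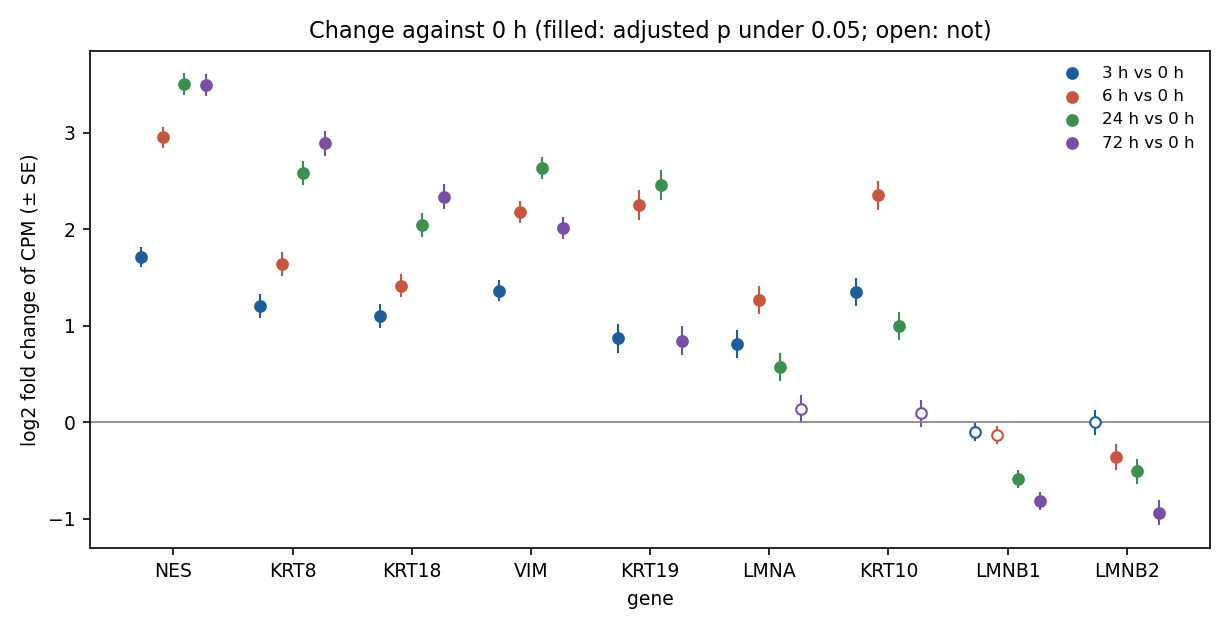
Log2 fold change of CPM against 0 h (y axis, bars are standard errors) for each of the 9 tested genes (x axis) at 3, 6, 24 and 72 h, with filled points for an adjusted p under 0.05. NES, KRT8, KRT18 and VIM stayed above 2 at 24 and 72 h, LMNA and KRT10 were highest at 6 h and open at 72 h, and LMNB1 and LMNB2 lay below 0 at 24 and 72 h.

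The A-type and B-type lamin genes took different courses. LMNA (ENSG00000160789, GRCh38 chromosome 1, 156082573 to 156140089, plus strand) was at 164 and 214 CPM at 0 h, 146 and 143 at 0.5 h, 186 and 173 at 1.5 h, 387 and 275 at 3 h, 467 and 442 at 6 h, 272 and 289 at 24 h, 244 and 247 at 48 h, then 200.4 and 215 at 72 h. Both libraries of 3, 6, 24 and 48 h stood above both 0 h libraries, and at 72 h the 2 groups overlapped. LMNA rose by 0.81 ± 0.15 (log2, SE) at 3 h and by 1.26 ± 0.15 at 6 h, the latter a 2.40-fold rise with an adjusted p of 4.91e-06 (edgeR). It fell by 0.70 ± 0.14 from 6 to 24 h (adjusted p = 0.00113, edgeR), and at 72 h its difference from 0 h was 0.13 ± 0.14 (adjusted p = 0.444, edgeR), which became 0.25 and passed with the GC trend removed. The 48 h rise of 0.38 ± 0.14 (adjusted p = 0.0417, edgeR) did not pass in 12 of 29 alternative analyses, with values of 0.20 to 0.58 over all of them.

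LMNB1 (ENSG00000113368, GRCh38 chromosome 5, 126776623 to 126837020, plus strand) encodes lamin B1. It was at 229 and 223 CPM at 0 h, 242 and 235 at 0.5 h, 217 and 239.6 at 1.5 h, 225 and 196 at 3 h, 206 and 206 at 6 h, 144 and 156 at 24 h, 159 and 167 at 48 h, then 135 and 121 at 72 h. The libraries of 24, 48 and 72 h all stood below those of the earlier times. LMNB1 fell by 0.59 ± 0.094 at 24 h, by 0.47 ± 0.094 at 48 h and by 0.82 ± 0.095 at 72 h, where the level was 0.567 times that at 0 h (adjusted p = 5.14e-06, edgeR). From 6 to 24 h it fell by 0.46 ± 0.094 (adjusted p = 9.80e-04, edgeR). At 3 and 6 h the differences from 0 h were -0.10 and -0.13 and did not pass, but with libraries scaled to total counts they were -0.39 and -0.50 and passed, a scaling that moved the median of all genes by -0.28 and -0.35 at these times. With the GC trend removed they were -0.18 and -0.24 and also passed.

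LMNB2 (ENSG00000176619, GRCh38 chromosome 19, 2427638 to 2456996, minus strand) encodes lamin B2 and overlaps the neighbouring gene TIMM13, so reads in the overlap may be shared. It was at 169.8 and 206 CPM at 0 h, 157 and 155 at 0.5 h, 164 and 168 at 1.5 h, 216 and 159 at 3 h, 144 and 148 at 6 h, 126 and 138 at 24 h, 120.3 and 125 at 48 h, then 92.3 and 103.9 at 72 h. Every library from 6 h on stood below both 0 h libraries. LMNB2 fell by 0.51 ± 0.13 at 24 h, by 0.62 ± 0.13 at 48 h and by 0.94 ± 0.13 at 72 h, to 0.522 times the 0 h level (adjusted p = 3.17e-05, edgeR). Its fall of 0.36 ± 0.13 at 6 h (adjusted p = 0.0290, edgeR) shrank to 0.07 with the GC trend removed and to 0.22 without 0 h replicate 2, and passed in neither case. Without that library the 24 h fall was 0.36 (adjusted p = 0.0527, edgeR; 2.46e-06 to 0.0527 over the alternatives).

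**Figure D2:**
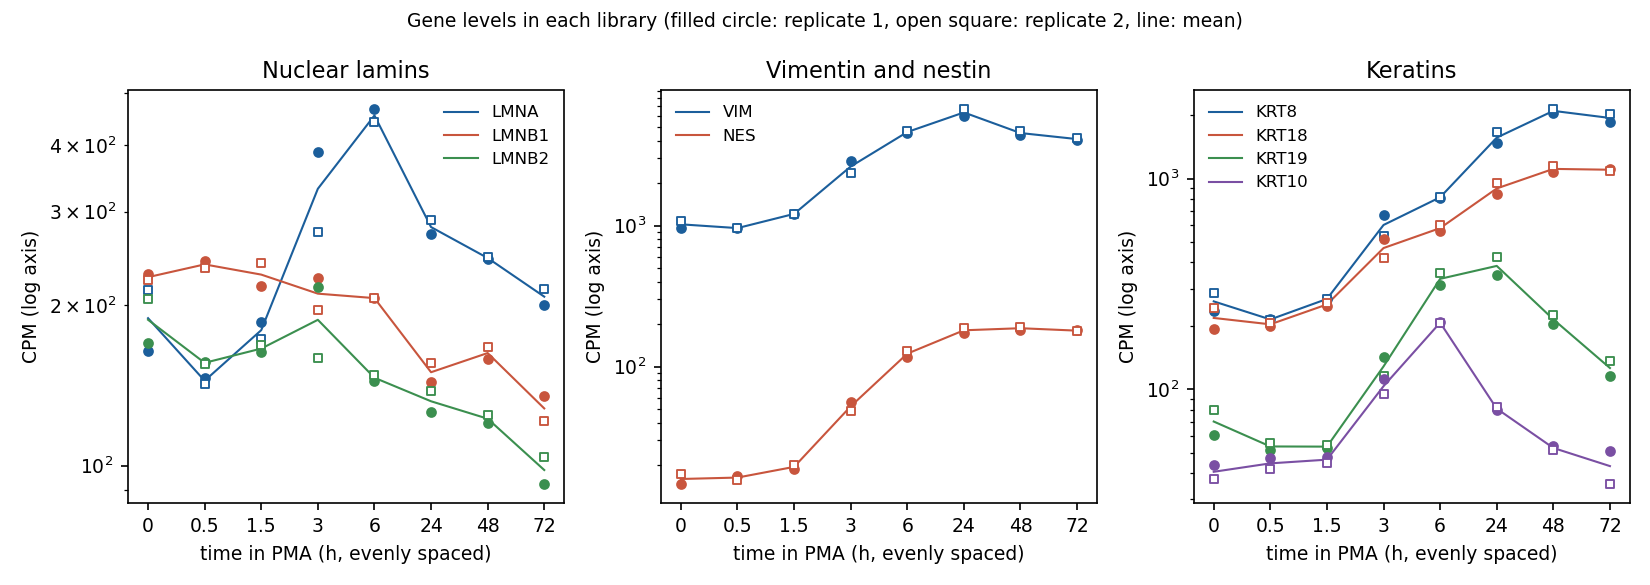
CPM of each gene in each library (log y axis) against time in PMA (x axis, evenly spaced), for the lamins, for vimentin and nestin, and for the keratins, with lines through the mean of the 2 libraries. LMNA and KRT10 are highest at 6 h, VIM and KRT19 at 24 h, and KRT8 at 48 h, and LMNB1 and LMNB2 are lowest at 72 h.

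The balance of A-type to B-type lamin transcripts was taken from TPM, which is per length and so can be compared between genes. The TPM of LMNA divided by the sum of LMNB1 and LMNB2 was 0.603 and 0.846 in the 0 h libraries, 0.520 and 0.555 at 0.5 h, 0.818 and 0.780 at 1.5 h, 1.28 and 1.33 at 3 h, 1.81 and 1.96 at 6 h, 1.36 and 1.53 at 24 h, 1.35 and 1.39 at 48 h, then 1.17 and 1.83 at 72 h. All 10 libraries from 3 h on were above all 6 earlier ones. At 72 h the 2 libraries spanned a wider range than at any other time point. The ratio also counts transcripts with no coding sequence, which differed between these libraries. At 72 h LMNA-211, of 551 bases, was at 0 and 44.4 TPM, and LMNB1-208 at 34.9 and 0.48 TPM. Their part in the wide range was not tested. The ratio was not tested.

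Within LMNA, reads were assigned mostly to LMNA-206, the lamin A transcript of 664 residues, and only 3.50% of all LMNA reads went to LMNA-207, the lamin C transcript of 572 residues. The lamin A share of the reads of these 2 transcripts was 85.0% and 72.4% at 0 h, 95.5% and 89.9% at 0.5 h, 99.3% and 100% at 1.5 h, 99.6% and 100% at 3 h, 100% and 99.8% at 6 h, 97.8% and 95.2% at 24 h, 87.0% and 86.2% at 48 h, then 89.4% and 78.3% at 72 h. The share was highest from 1.5 to 6 h in both libraries. The 2 transcripts also differ in their annotated start, at 156114707 for LMNA-206 and 156082578 for LMNA-207. In this share, a change of start and a change of coding end cannot be told apart. LMNA-207 itself was at 9.87 and 20.8 TPM at 0 h, 0.44 TPM and 0 at 1.5 h, and 7.33 and 15.7 TPM at 72 h.

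Other deposited LMNA transcripts share these coding ends. With LMNA-206 and LMNA-207 included, 5 have the end of lamin A and 3 that of lamin C, and a second count took all of them. By coding end, the lamin A share of reads was 62.6% and 66.7% at 0 h, 80.9% and 76.3% at 6 h, 74.5% and 67.5% at 24 h, then 63.6% and 53.9% at 72 h. Taken from TPM, and so per length, this share was 49.6% and 57.8% at 0 h and 69.1% and 62.3% at 6 h. At 48 h it was 46.5% and 45.7%, and at 72 h 50.4% and 40.8%. The size of the share therefore depended on which transcripts were counted and on the use of reads or TPM. With either count it was higher in both 6 h libraries than in the 0 h and 72 h libraries. LMNA-202, which has the lamin C end, was at 15.4 TPM in replicate 1 and 43.0 in replicate 2 at 72 h. LMNA-205, with the lamin A end, was at 28.9 and 9.65 TPM at 6 h. At 0 h the order of the replicates was the reverse, with LMNA-202 at 19.7 and 13.7 TPM and LMNA-205 at 12.4 and 24.8 TPM. The assignment to single transcripts therefore differed between libraries of the same time point, in no constant direction for these transcripts.

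**Figure D3:**
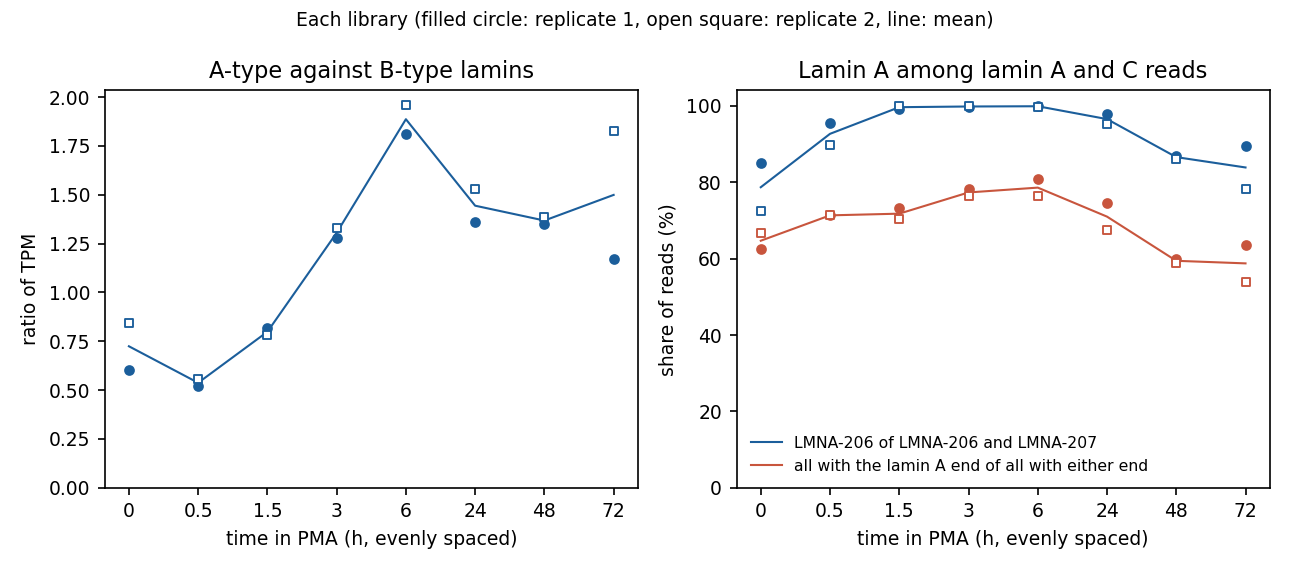
Left, TPM of LMNA divided by the sum of LMNB1 and LMNB2 in each library against time in PMA. Right, lamin A share of reads (%), from LMNA-206 and LMNA-207 alone or from all transcripts with either coding end: the ratio is highest at 6 h (1.81 and 1.96), and the second share runs from 62.6% and 66.7% at 0 h to 80.9% and 76.3% at 6 h.

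Vimentin and nestin rose together. VIM (ENSG00000026025, GRCh38 chromosome 10, 17228259 to 17237593, plus strand) was at 966 and 1075 CPM at 0 h, 961 and 959 at 0.5 h, 1217 and 1204 at 1.5 h, 2882 and 2367 at 3 h, 4538 and 4681 at 6 h, 6006 and 6687 at 24 h, 4368 and 4700.0 at 48 h, then 4055 and 4158 at 72 h. All libraries from 3 h on stood above all earlier ones, and those of 24 h were the highest. VIM rose by 1.36 ± 0.11 at 3 h, 2.18 ± 0.11 at 6 h and 2.64 ± 0.12 at 24 h, where the rise was 6.22-fold (adjusted p = 3.27e-10, edgeR). It then fell by 0.63 ± 0.11 from 24 to 72 h (adjusted p = 9.59e-04, edgeR), which left it 4.02-fold above 0 h. VIM-201, of 466 residues, took 96.6% of the VIM reads.

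NES (ENSG00000132688, GRCh38 chromosome 1, 156668763 to 156677397, minus strand) has a single listed transcript, NES-201, of 1621 residues. It was at 14.7 and 17.2 CPM at 0 h, 16.9 and 15.8 at 0.5 h, 18.8 and 20.1 at 1.5 h, 55.9 and 48.5 at 3 h, 118 and 129 at 6 h, 173 and 188 at 24 h, 183 and 191 at 48 h, then 181 and 178 at 72 h. NES had the largest fold change of the 9 genes at 3, 6, 24, 48 and 72 h. It rose by 1.71 ± 0.11 at 3 h and 2.95 ± 0.11 at 6 h. The rises at 24, 48 and 72 h were 3.50 ± 0.11, 3.55 ± 0.11 and 3.50 ± 0.11, the last an 11.3-fold rise (adjusted p = 9.07e-12, edgeR), and the libraries of 24 and 72 h overlapped. Per length, NES stayed far below VIM, at 4.19 and 4.50 TPM at 0 h and 51.3 and 50.6 TPM at 72 h, when VIM was at 3756 and 3911 TPM.

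KRT8 and KRT18, the pair of simple epithelia, rose from 3 h on and were highest at 48 and 72 h. KRT8 (ENSG00000170421, GRCh38 chromosome 12, 52897187 to 52949954, minus strand) was at 235 and 288 CPM at 0 h, 215 and 214 at 0.5 h, 269 and 267 at 1.5 h, 671 and 534 at 3 h, 811 and 820.2 at 6 h, 1475 and 1656 at 24 h, 2059.8 and 2135 at 48 h, then 1860.1 and 2021 at 72 h. KRT8 rose by 1.20 ± 0.12 and 1.64 ± 0.12 at 3 and 6 h, by 2.58 ± 0.13 and 3.00 ± 0.13 at 24 and 48 h, and by 2.89 ± 0.13 at 72 h, the last a 7.42-fold rise (adjusted p = 3.35e-10, edgeR). Its libraries of 48 and 72 h stood above those of 24 h. The difference of 0.31 ± 0.12 between 72 and 24 h did not pass (adjusted p = 0.0780, edgeR), but passed in 8 of the 29 alternatives.

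KRT18 (ENSG00000111057, GRCh38 chromosome 12, 52948871 to 52952901, plus strand) lies beside KRT8, and the annotated spans of the 2 genes overlap on opposite strands. It was at 193 and 244 CPM at 0 h, 199.9 and 207 at 0.5 h, 248 and 257 at 1.5 h, 514 and 422 at 3 h, 564 and 601 at 6 h, 847 and 949 at 24 h, 1074 and 1150.4 at 48 h, then 1111 and 1093 at 72 h. The libraries of each time from 3 h on stood above all those of the first 3 time points. KRT18 rose by 1.102 ± 0.12 and 1.42 ± 0.12 at 3 and 6 h, by 2.04 ± 0.13 and 2.35 ± 0.13 at 24 and 48 h, and by 2.34 ± 0.13 at 72 h, the last a 5.05-fold rise (adjusted p = 2.43e-09, edgeR). As no source used here says whether counting was stranded, reads of the KRT8 and KRT18 overlap could be assigned to either gene, and both have many processed copies in the genome: 51 annotated KRT8 and 65 KRT18 pseudogenes took reads equal to 1.43% and 1.51% of those of their parent.

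Per length, the ratio of the genes of this pair differed between early and late times. The TPM of KRT8 divided by that of KRT18 was 0.976 and 0.976 at 0 h, 0.923 and 0.858 at 0.5 h, 1.05 and 1.08 at 3 h, 1.19 and 1.16 at 6 h, 1.42 and 1.40 at 24 h, 1.53 and 1.45 at 48 h, then 1.53 and 1.49 at 72 h. All libraries of 24, 48 and 72 h were above all earlier ones, and the ratio was not tested. With KRT19 added to KRT18 as the second type I partner, the ratio was 0.735 and 0.729 at 0 h and 1.38 and 1.32 at 72 h. In both ratios the TPM of KRT8 includes KRT8-211, a transcript of 770 bases annotated as a retained intron, with no coding sequence. KRT8-211 was at 10.6 and 1.09 TPM at 0 h and 727 and 314 TPM at 72 h. The ratios are therefore not those of coding transcripts alone.

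KRT19 (ENSG00000171345, GRCh38 chromosome 17, 41523617 to 41528308, minus strand), a small type I keratin, rose and then lost most of its rise. It was at 60.6 and 80.0 CPM at 0 h, 51.4 and 55.6 at 0.5 h, 52.5 and 54.4 at 1.5 h, 142 and 115 at 3 h, 314 and 355 at 6 h, 347 and 423 at 24 h, 203 and 226 at 48 h, then 116 and 137 at 72 h. Both libraries of every time from 3 h on stood above both 0 h libraries, and those of 6 and 24 h overlapped. KRT19 rose by 0.87 ± 0.15 at 3 h, 2.25 ± 0.16 at 6 h and 2.45 ± 0.16 at 24 h (5.48-fold, adjusted p = 1.37e-08, edgeR). It fell by 1.61 ± 0.15 from 24 to 72 h (adjusted p = 5.06e-06, edgeR), the largest fall of the 9 genes over that interval, and was then 1.79-fold above 0 h.

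KRT10 (ENSG00000186395, GRCh38 chromosome 17, 40818117 to 40822595, minus strand), the type I keratin of differentiating epidermis, showed a rise centred on 6 h. It was at 43.7 and 37.5 CPM at 0 h, 47.1 and 41.9 at 0.5 h, 47.8 and 44.9 at 1.5 h, 112 and 95.3 at 3 h, 209 and 205 at 6 h, 79.5 and 82.4 at 24 h, 53.7 and 51.6 at 48 h, then 50.9 and 35.5 at 72 h. The 6 h libraries stood far above all others, and those of 72 h overlapped with those of 0 h. KRT10 rose by 1.35 ± 0.14 at 3 h and 2.35 ± 0.15 at 6 h (5.10-fold, adjusted p = 1.05e-08, edgeR) and fell by 1.36 ± 0.14 from 6 to 24 h (adjusted p = 3.02e-06, edgeR). The difference from 0 h was 1.00 ± 0.14 at 24 h, 0.38 ± 0.14 at 48 h (adjusted p = 0.0393, edgeR; not passed in 14 of 29 alternatives) and 0.09 ± 0.14 at 72 h (adjusted p = 0.608, edgeR). Without 72 h replicate 2 the 72 h difference was 0.33 and passed, and without 72 h replicate 1 it was -0.19. KRT1, the type II partner of KRT10 in epidermis, had at most 1 read in 15 libraries and 3 in the other, where 3 reads stand for 0.0623 to 0.128 CPM.

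The peak at 6 h was seen in KRT10-201, the longer of 2 KRT10 transcripts. KRT10-201, which encodes 584 residues, was at 23.2 and 23.6 TPM at 0 h, 54.4 and 48.3 at 3 h, 114 and 105 at 6 h, 35.9 and 35.2 at 24 h, then 16.2 and 14.8 at 72 h, so both 72 h libraries were below both 0 h libraries. KRT10-202, a transcript of 583 bases that overlaps the end of the gene, was at 60.5 and 17.4 TPM at 0 h, 102 and 62.4 at 6 h, 125 and 107 at 24 h, then 125 and 71.3 at 72 h. Its 2 libraries differed widely at 0, 6 and 72 h. In TPM, a short transcript weighs more, and counts derived from TPM gave KRT10 a rise of 0.89 at 72 h that passed (adjusted p = 0.00884, edgeR; up to 0.992 over the alternatives) and a fall of 0.56 from 6 to 24 h that did not (adjusted p = 0.0756, edgeR; 4.93e-26 to 0.0756). The antisense gene KRT10-AS1 overlaps KRT10, and its reads cannot be told apart from those of KRT10 without the strand.

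KRT8 transcripts also diverged. KRT8-201, of 483 residues, was at 120 and 133 TPM at 0 h, 386 and 422 at 6 h, 840.2 and 997 at 24 h, then 1024 and 1555 at 72 h. KRT8-217, which starts inside the span of KRT18 and encodes 32 residues, was at 17.6 and 16.7 TPM at 0 h, 8.92 and 8.25 at 6 h, then 13.5 and 17.98 at 72 h. KRT8-216, with the same coding length as KRT8-201, stood higher in replicate 1 than in replicate 2 at all times from 0.5 h on (328 against 122 TPM at 72 h), and the same held for LMNB1-208 at all 8 time points (34.9 against 0.48 TPM at 72 h). These are the authors' assignments of reads to similar transcripts. Fragment lengths, derived from the effective transcript lengths, were 217 (replicate 1) and 199 nucleotides (replicate 2) at 0 h. They were 213 and 249 at 0.5 h, and 218 and 230 at 72 h. Replicate 2 had the longer fragments at every time from 0.5 h on, and the shorter ones at 0 h. Fragment lengths were 199 to 249 nucleotides over all libraries, and their part in these assignments was not tested.

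**Figure D4:**
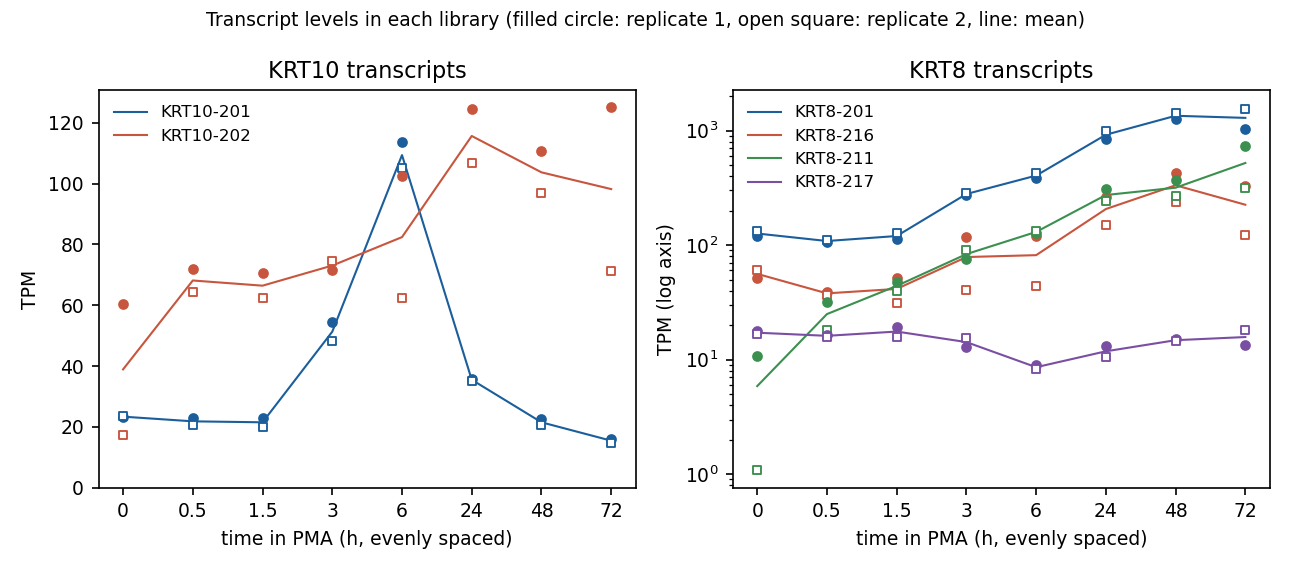
TPM of 2 KRT10 transcripts (linear axis) and 4 KRT8 transcripts (log axis) in each library against time in PMA, with lines through the mean. KRT10-201 peaks at 6 h (114 and 105 TPM) and KRT10-202 has its highest mean at 24 h (125 and 107 TPM), and KRT8-201 reaches 1024 and 1555 TPM at 72 h while KRT8-217 stays between 8.25 and 19.2 TPM.

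Total RNA libraries also hold unspliced RNA, and 7 of the 9 tested genes have transcripts annotated as retained introns. The share of KRT8 reads in such transcripts was 2.97% and 1.50% at 0 h, 6.78% and 4.59% at 0.5 h, 14.0% and 11.9% at 1.5 h, 8.90% and 9.37% at 6 h, then 15.1% and 6.44% at 72 h. For KRT18 it was 1.75% and 1.51% at 0 h, 3.82% and 3.58% at 0.5 h, 6.92% and 5.99% at 1.5 h, 3.28% and 3.55% at 3 h, then 1.31% and 1.24% at 72 h. For LMNA it was 1.06% and 1.14% at 0 h, 6.90% and 5.73% at 1.5 h, then 1.02% and 1.04% at 72 h. In KRT18 and LMNA both 1.5 h libraries were above all the others, a time at which the genes' own levels had not passed the test.

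VIM had a lower share, of 0.42% and 0.29% at 0 h, 2.19% and 1.70% at 1.5 h, 1.50% and 1.98% at 3 h, then 0.40% and 0.31% at 72 h. KRT19 had 0.94% and 0.61% at 0 h, 1.88% and 1.29% at 1.5 h, then 3.46% and 2.65% at 3 h, its highest time. In LMNB1 the share was at most 0.88% and in LMNB2 at most 0.19% in any library. Over the 8331 tested genes with such a transcript, the share was 9.60% and 8.93% at 0 h, 9.002% and 8.25% at 1.5 h, then 6.59% and 7.69% at 72 h, so the 1.5 h libraries were not high over all genes. These shares were not tested.

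**Figure D5:**
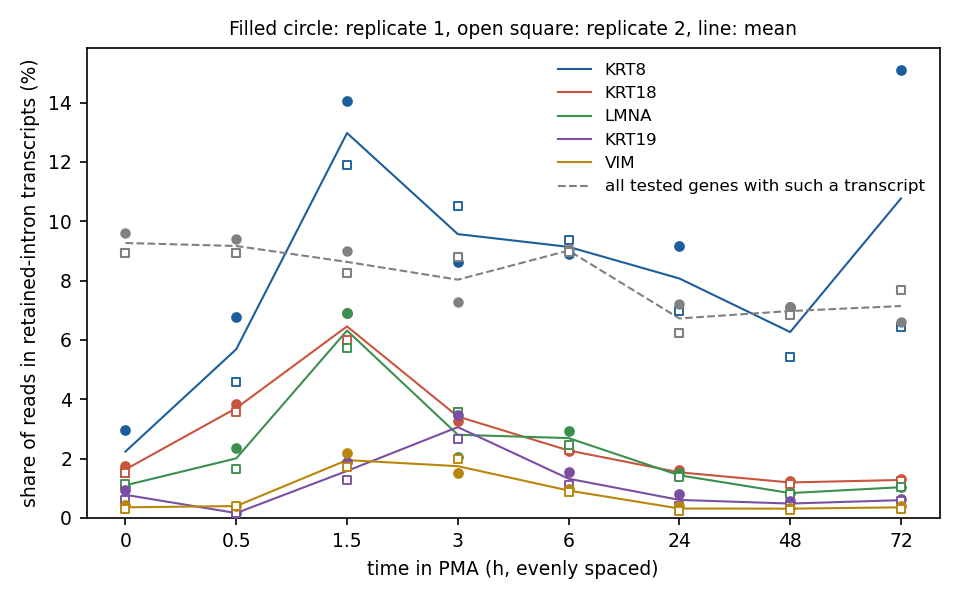
Share of a gene's reads in transcripts annotated as retained introns (y axis, %) in each library against time in PMA, with lines through the mean, for 5 genes and for all 8331 tested genes with such a transcript. KRT18 and LMNA are highest at 1.5 h (6.92% and 5.99%, 6.90% and 5.73%) and KRT19 at 3 h, while the share over all genes runs from 9.60% and 8.93% at 0 h to 6.59% and 7.69% at 72 h.

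Comparisons between later time points gave the order of the changes. From 6 to 24 h, 4 of the 9 genes rose (VIM, NES, KRT8 and KRT18) and 3 fell (LMNA, LMNB1 and KRT10), where 30.8% of all tested genes were called higher and 25.8% lower. KRT8 rose most, by 0.94 ± 0.12 (adjusted p = 2.22e-05, edgeR), and VIM rose by 0.46 ± 0.11 (adjusted p = 0.00292, edgeR), the latter not passed without 24 h replicate 2 (0.34, adjusted p = 0.0534, edgeR; 3.47e-05 to 0.0534 over the alternatives). From 24 to 72 h, edgeR called 0 of the 9 genes higher and 5 lower (LMNA, LMNB2, VIM, KRT19 and KRT10), where 13.9% of all genes were called higher and 12.4% lower. At an unadjusted p under 0.05 there were 8 of the 9, all but NES. DESeq2 called KRT8 (0.34) and KRT18 (0.33) higher, and each of them passed in 8 of the 29 alternatives. KRT10 fell by 0.91 ± 0.14 (adjusted p = 4.33e-04, edgeR). The falls of LMNA (0.43 ± 0.14, adjusted p = 0.0409, edgeR) and LMNB2 (0.43 ± 0.13, adjusted p = 0.0270, edgeR) did not pass in 18 and 5 of 29 alternatives, among them those without 24 h replicate 2 and without 72 h replicate 1.

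Ranked per length, the 0 h cells held VIM first (907 and 937 TPM), then KRT18 (248 and 283) and KRT8 (242 and 277), whose libraries overlapped, then LMNA (127 and 171) and LMNB1 (142 and 128), which also overlapped. KRT19 (81.3 and 95.7), LMNB2 (67.4 and 73.6) and KRT10 (83.7 and 41.0) followed, with KRT10 overlapping both others, and NES and KRT1 came last. At 72 h VIM was still first, KRT8 (2163 and 2090.0) stood above KRT18 (1414 and 1405), LMNA (158 and 212) overlapped with KRT19 (152 and 182), KRT10 (141 and 86.1) with LMNB1 (95.0 and 71.7), and NES was above LMNB2 (39.5 and 44.6). The place of KRT10 rests in part on its short transcript. The 10 genes together made up 0.190% and 0.201% of all TPM at 0 h, 0.881% and 0.872% at 24 h, then 0.797% and 0.805% at 72 h. The TPM of VIM divided by the sum of KRT8, KRT18 and KRT19 was 1.59 and 1.43 at 0 h, 2.15 and 2.07 at 6 h, then 1.01 and 1.06 at 72 h, the latter below every library up to 24 h.

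Among the 9 genes, log2 CPM over the 16 libraries correlated most between KRT8 and KRT18 (Pearson r = 0.997), NES and KRT18 (0.982) and VIM and NES (0.979). LMNB1 and LMNB2 correlated at 0.851, LMNA and KRT10 at 0.898, and LMNA and LMNB1 at -0.17. LMNB1 ran opposite to KRT8 (r = -0.891). The points share their time points and library depths, so these values describe the courses.

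Among tested genes averaging 5 CPM or more, the courses most like that of VIM were those of DYNLL1, a dynein light chain (r = 0.996), and LASP1, an actin-binding protein (0.992). NES was most like CD44, a cell surface receptor for hyaluronan (0.998, from a mean of 14.8 CPM at 0 h to 4629 at 72 h), and TAGLN3 (0.998). KRT8 and KRT18 were most like each other, followed by LPAR5 (0.995) and ARHGAP25 (0.996). LMNA was most like HGS (0.990) and RIC8A (0.978), KRT19 like USP11 and SDHA (both 0.982), and KRT10 like TEAD1 (0.987) and TXNRD1, thioredoxin reductase (0.979; mean 239 CPM at 0 h, 1291 at 6 h and 246 at 72 h). LMNB1 was most like EZH2, a histone methyltransferase (0.973; 171 CPM at 0 h and 66.6 at 72 h), and RHAG, an erythroid membrane protein (0.968), and LMNB2 like AAAS (0.978).

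Other intermediate filament genes were low in these cells, at a mean of at most 7.39 CPM. Of 30 further genes of the family, KRT20 and KRT23 are not analysed here, 18 had no library above 11 reads and did not pass the filter (among them the epidermal KRT5, KRT14 and KRT16 and the neurofilament gene NEFL), and 10 were tested. At 72 h, 6 of the 10 were higher and 4 lower than at 0 h (31.7% and 26.9% of all tested genes), with a median log2 fold change of 1.57, or 1.14 with the 2 genes at 0 reads at 0 h set to their lower bound, against -0.032 for all genes. SYNM (synemin, a partner of vimentin and desmin) was at 0.28 and 0.16 CPM at 0 h and 2.03 and 2.16 at 72 h, a rise of 3.23 ± 0.39. KRT15, the most abundant of the 10, was at 4.70 and 4.51 CPM at 0 h and 7.19 and 7.78 at 72 h (0.70 ± 0.16). KRT4 and KRT9 were at 0 reads in both 0 h libraries and passed the test with 0.22 and 0.34 CPM (KRT4) and 0.47 and 0.31 CPM (KRT9) at 72 h. DES (desmin) fell by 1.77 ± 0.26 from 6.48 and 7.69 CPM, and PRPH (peripherin) by 2.59 ± 0.43 from 0.86 and 1.32 CPM.

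Genes for proteins of the lamina and nuclear envelope were followed as partners of the lamins. Of 19 tested genes, 11 were higher and 3 lower at 6 h (median log2 fold change 0.69), and 8 were higher and 4 lower at 72 h (median 0.15). The shares over all tested genes were 27.8% higher and 29.4% lower at 6 h, and 31.7% and 26.9% at 72 h. SYNE1, which encodes a nesprin that links the nucleus to the cytoskeleton, rose by 1.84 ± 0.15 at 72 h, from 9.91 and 9.98 CPM to 36.8 and 34.3. TOR1AIP1, a lamin-binding membrane protein, was at 69.5 and 60.3 CPM at 0 h, 257 and 257 at 6 h, then 143 and 122 at 72 h, and its partner TOR1A (torsin A) rose by 0.97 ± 0.086 at 72 h. LBR, the lamin B receptor, fell by 1.15 ± 0.19, from 281 and 209 CPM to 133 and 86.6, and SYNE3 fell by 1.22 ± 0.088. TPR, a nuclear pore protein and the most abundant of the list, was at 509 and 428 CPM at 0 h and 527 and 466 at 72 h and did not pass.

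Of 6 genes of lamin processing, 3 were higher and 2 lower at 6 h, and 2 were higher and 3 lower at 72 h, with medians of 0.24 and -0.20 (all tested genes: 27.8% higher and 29.4% lower at 6 h, 31.7% and 26.9% at 72 h). ZMPSTE24, the protease that trims the farnesylated end from prelamin A, was at 83.2 and 60.8 CPM at 0 h, 118 and 119 at 6 h, then 149.5 and 109.8 at 72 h (a rise of 0.85 ± 0.15 at 72 h). The farnesyltransferase subunits differed in sign at 72 h, FNTA at 0.36 ± 0.11 and FNTB at -0.53 ± 0.15, and both passed. RCE1, the protease that cuts the CaaX box, rose by 0.95 at 6 h and fell by 0.70 ± 0.18 at 72 h, and NARF, a prelamin A binding protein, fell by 0.90 ± 0.12 at 72 h.

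Of 14 cytolinkers and filament partners, 7 were higher and 3 lower at 6 h, and 9 were higher and 2 lower at 72 h, with medians of 0.67 and 0.67. Of all tested genes, 27.8% were higher and 29.4% lower at 6 h, and 31.7% and 26.9% at 72 h. FLNA (filamin A, which binds vimentin and actin) was the most abundant, at 1104 and 1291 CPM at 0 h, 4278 and 4051 at 6 h, then 3336 and 3311 at 72 h (1.47 ± 0.14). YWHAZ, an adaptor protein that binds phosphorylated vimentin and KRT18, was at 659.7 and 517 CPM at 0 h, 3707 and 3716 at 6 h, then 2060.1 and 1589 at 72 h (1.63 ± 0.14). DSP (desmoplakin) and PPL (periplakin), which anchor keratins at desmosomes, passed as higher at 72 h but at levels of only 0.50 and 0.50 CPM and 0.64 and 0.81 CPM. PKP4 fell by 0.95 ± 0.088 and TCHP (trichoplein, a keratin-binding protein) by 0.74 ± 0.10.

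Of 14 genes that mark epithelial or mesenchymal cells, 11 were tested, 5 were higher and 0 lower at 6 h, and 4 were higher and 3 lower at 72 h (medians 0.25 and 0.094). The counts at 72 h are near the shares of all tested genes (31.7% and 26.9%; 27.8% and 29.4% at 6 h). EPCAM, an epithelial adhesion protein, was at 49.3 and 40.6 CPM at 0 h, 82.0 and 83.2 at 6 h, then 19.1 and 16.6 at 72 h, a fall of 1.33 ± 0.12 at 72 h. The transcription factor ZEB1 was at 21.9 and 14.3 CPM at 0 h and 83.3 and 75.5 at 72 h (2.13 ± 0.15), and ZEB2, the most abundant of the list, rose by 0.46 ± 0.099. SPARC, a matrix protein, rose by 2.98 ± 0.19, FN1 (fibronectin) fell by 1.07 ± 0.12, and SNAI2 went from 0.031 CPM and 0 to 1.37 and 0.87 CPM.

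The 18 genes of the proliferation list are genes of DNA replication and mitosis. Of them, 12 were lower and 3 higher at 6 h, 15 lower and 2 higher at 24 h, and 13 lower and 1 higher at 72 h, with medians of -0.39, -1.06 and -1.01. Of all tested genes, 29.4%, 26.6% and 26.9% were lower and 27.8%, 31.7% and 31.7% higher at these times. AURKB, a mitotic kinase, fell by 1.58 ± 0.10 and MCM2, a subunit of the replicative helicase, by 1.40 ± 0.13 at 72 h. UBE2C, which is at about 1 CPM, fell by 1.74 ± 0.33, and TOP2A, the most abundant, was at 666 and 526 CPM at 0 h, 309.6 and 305 at 24 h, then 534 and 393 at 72 h (a fall of 0.36 ± 0.14). RRM2, a subunit of ribonucleotide reductase, was the gene called higher at 72 h, with a rise of 1.71 ± 0.093. AURKA (0.21), MKI67 (0.15), BUB1 (-0.086) and CDK1 (-0.12) were not called at 72 h, and MKI67 was higher at 6 h (0.89). The part of these changes in the fall of LMNB1 and LMNB2 was not tested.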

How the data were processed

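Per the labels' protocols, DNase-treated RNA of K562 cells was made into ribosomal RNA-depleted libraries (KAPA RNA HyperPrep with RiboErase). The authors deposited 1 Salmon table per library, with estimated counts and TPM for 177456 transcripts, per the file headers. The submitters' processing notes name Trim Galore 0.4.3, Salmon and, with no role given, HISAT2 2.1.0 and the builds hg19 and hg38; the transcript release and the use of strand are not given in the sources used here.

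Here 94.1% of transcripts were matched to GENCODE 29 (GRCh38), and the unmatched ones held 3.01% to 3.75% of reads. Estimated counts were summed per gene and rounded. TPM was summed per gene for comparisons between genes. The main test was edgeR 4.0.16 (TMM scaling, filterByExpr, quasi-likelihood test on time point over all 16 libraries), with Benjamini-Hochberg adjustment over 17559 genes and a threshold of 0.05. Log2 fold changes use a prior count of 0.125, and standard errors were derived from the F statistic. The procedure was tested on simulated data. DESeq2 1.42.0, other scalings and filters, GC correction, TPM-derived counts, a replicate block and leaving out each library were tried as alternatives. A count of 3 reads was taken as the floor, and floors cover counting error only.

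Genes named from each list were the called gene with the largest change at 72 h, the most abundant gene and up to 2 more called genes in each direction. Genes of similar course were the 2 with the highest Pearson r among tested genes averaging 5 CPM or more. One such gene and 2 coding ends are not reported here. Transcripts were named at 10% or more of a gene's reads, and LMNA-207 as the lamin C transcript. KRT8-217 was chosen after its values were seen. KRT8-211 (6.96% of KRT8 reads) and LMNA-211 (0.82% of LMNA reads) were also named outside this rule. Members and lists were chosen with earlier results of these data known.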

Additional observations from a re-analysis of the deposited data

How the results depend on the processing

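For 63 results on single genes, 29 alternatives each gave 1827 values, of which 1724 kept direction and side of the threshold, 62 lost the call, 36 gained one and 5 reversed. These results do not cover every gene in every comparison: none is at 0.5 h, and at 1.5 h only VIM, NES, KRT18 and KRT19 are covered. The reversed values all belong to differences at 72 h that were not called: LMNA at -0.020 with total-count scaling and -0.040 without 0 h replicate 1, and KRT10 at -0.077 with total-count scaling, -0.017 without 0 h replicate 2 and -0.19 without 72 h replicate 1. The same differences reached 0.33 for LMNA without 0 h replicate 2 and 0.33 for KRT10 without 72 h replicate 2. The cause was not tested. Total-count scaling moved the median of all genes by -0.35 at 6 h and -0.19 at 72 h.

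Of the 9 tested genes, the number called at 0.5 h (0) was 1 with no low-count filter and 0 to 3 when each library was left out, with 3 without 0 h replicate 1; over all genes, calls went from 30 to 1538 with no filter and to 3585 without that library. The number at 1.5 h (0) was 1 with total-count scaling, 1 with no filter, 4 with the GC trend removed, 5 with the replicate block and the GC trend removed, and 0 to 1 when each library was left out. The number from 24 to 72 h (5) was 3 at an adjusted p under 0.01, 8 with the replicate block and GC trend removed, 2 with only the 2 time points compared (fewer samples), and 3 to 6 when each library was left out, with 3 without 24 h replicate 1, 24 h replicate 2 or 72 h replicate 1. The fall of VIM from 24 to 72 h was 0.60 with only the 2 time points compared and did not pass. In the other comparisons the number stayed within 1.5 times.

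Same-numbered libraries of different time points correlated in their deviations at -0.10 to 0.19 over 28 pairs of time points, 11 of them over 0.1, so not every pair passed 0.1 and the numbers were not taken to pair the libraries. At the level of transcripts, LMNB1-208 was higher in replicate 1 and LMNA-211 in replicate 2 at all 8 time points. The replicate block alone left the number of called genes at 7 for 3 h, 8 for 6 h, 9 for 24 and 48 h, 7 for 72 h and 5 for 72 against 24 h.

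With 2 libraries per time point, small differences such as those of LMNA and KRT10 at 48 h (0.38 each) lie near the limit of detection, and values of single transcripts rest on the authors' assignment of shared reads.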
